A study of Mus musculus with 12 samples.

Results

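Transcripts of the metallothioneins and of a set of zinc transport genes were followed in mouse liver and in a mouse macrophage line, each with and without esculetin. The 8 genes were Mt1 and Mt2, Mtf1, the exporters Slc30a1 and Slc30a10, and the importers Slc39a4, Slc39a10 and Slc39a14. They were found by their Ensembl identifiers, and each of the 8 was listed once among the 55357 gene identifiers of both count tables. In the liver 7 of the 8 had enough reads to be tested, and in the cells 6 of the 8.

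RNA was sequenced in 12 libraries that formed 4 groups of 3. The livers came from male wild-type C57BL6/J mice of 8 to 9 weeks that were gavaged daily for 7 days with 90 mg/kg of esculetin, a coumarin found in plants, or with the vehicle, 2.5% Tween-80. All mice ate a diet of 10% fat (share of kcal) for the first 4 days and of 60% fat for the last 3 days. RAW264.7 cells, a wild-type mouse macrophage line, were held for 24 h with 25 µg/mL DIL-oxLDL, an oxidized low-density lipoprotein that carries a dye, together with 40 µg/mL esculetin or with DMSO. Each liver library stood for a pool, since the study made 1 sample from a pair of mice, and all cell libraries stood for a single line. No group lacked the high-fat diet or the oxLDL, and no source used here says that the cell libraries came from separate cultures, so p-values measured the spread between these libraries, which may be technical.

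Metallothioneins are small, cysteine-rich proteins of the cytosol that bind zinc and copper and buffer their free levels. Transcription of their genes is known to be driven by MTF1, a factor that senses zinc and binds short metal response elements in promoters, and the liver also makes more metallothionein in the acute phase and under glucocorticoids. Zinc leaves the cytosol, across the cell membrane or into organelles, through transporters of the SLC30 family (ZnT) and enters it through those of the SLC39 family

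The promoters of the metallothionein genes and of Slc30a1, known targets of MTF1, are shown because Mt1 and Slc30a1 were both among the genes that rose in the cells. The core of the metal response element was searched as TGCACNC and TGCGCNC on both strands, in windows of 300 bases around the gene starts of RefSeq (build GRCm38.p6), of which 250 lie before the start and 50 after it. The 250 bases before each start are printed 5′ to 3′ on the strand of the gene, with matches in capitals; a match on the other strand reads as its reverse complement. The windows were chr8:94178839-94179088 (plus strand) for Mt1, chr8:94172368-94172617 (plus strand) for Mt2 and chr1:191906531-191906780 (plus strand) for Slc30a1.
Mt1: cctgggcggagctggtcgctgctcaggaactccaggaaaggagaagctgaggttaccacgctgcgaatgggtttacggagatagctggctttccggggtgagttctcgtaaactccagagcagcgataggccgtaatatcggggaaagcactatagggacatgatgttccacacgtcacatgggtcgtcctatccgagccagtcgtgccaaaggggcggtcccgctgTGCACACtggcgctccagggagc
Mt2: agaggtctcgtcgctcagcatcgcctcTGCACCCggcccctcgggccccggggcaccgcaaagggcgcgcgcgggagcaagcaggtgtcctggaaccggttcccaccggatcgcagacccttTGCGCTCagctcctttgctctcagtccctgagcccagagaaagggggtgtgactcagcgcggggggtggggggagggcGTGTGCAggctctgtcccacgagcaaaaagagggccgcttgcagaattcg
Slc30a1: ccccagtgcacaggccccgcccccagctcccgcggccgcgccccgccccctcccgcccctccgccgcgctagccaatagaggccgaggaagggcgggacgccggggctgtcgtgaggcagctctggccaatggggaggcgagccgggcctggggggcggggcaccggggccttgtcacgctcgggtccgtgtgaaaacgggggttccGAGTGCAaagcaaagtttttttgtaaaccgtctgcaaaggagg

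Over the whole 300 bases Mt2 had 4 matches, Mt1 had 3, Slc30a10 had 3, of which 2 overlapped, Slc30a1 had 2, and Mtf1 and Slc39a10 had none. Of 32851 promoter windows of the same length, 25.7% held at least 1 match, 7.11% at least 2, 1.97% at least 3 and 0.518% at least 4. In Mt1 2 of the 3 matches lay in the first 27 bases after the start and are not printed. The table held windows for 6 of the 8 genes. A match describes letters only, and the start that these samples used was not measured.

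Total counts ran from 14659876 to 20346460 in the liver libraries and from 13752842 to 20001959 in the cell libraries. In the liver the first principal component, with 39.9% of the variance, set vehicle library 1 apart at -47.9, against -3.44 to 19.4 for the other libraries, and in the cells the first component (77.9%) separated the treatments. The labels were checked against marker genes. The summed level of 8 hepatocyte markers was 105121 to 133435 CPM (counts divided by library size) in the livers and 0 to 1.24 CPM in the cells, where 4 of the 8 were at 0. The summed level of 8 macrophage markers in the cells was 2317 to 2484 CPM with DMSO and 5646 to 8579 CPM with esculetin. The 5 cholangiocyte markers, among them Spp1, which macrophages also make, summed to 797 to 918 CPM in the cells with DMSO and 4793 to 9730 CPM with esculetin, with 2 of the 5 at 0. The part of these shifts in the differences given here was not tested. In a bulk liver sample, fewer cells of a type and less RNA per cell cannot be told apart.

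In the RAW264.7 cells Mt1 and the importer gene Slc39a14 each stood about 3 times higher with esculetin, Slc30a1 rose less, and Slc39a10 fell slightly. In edgeR's quasi-likelihood test, 4 of the 6 tested genes were called at a Benjamini-Hochberg adjusted p-value under 0.05, 3 higher and 1 lower with esculetin. Over all 13277 tested genes 57.7% were called, 28.7% higher and 29% lower, so the share of called members was near the background of this comparison. The same 4 genes had no overlap between the groups, as had 64.1% of all tested genes. At an unadjusted p-value under 0.05, 4 of the 6 passed, beside 62.3% of all tested genes. The median log2 fold change of the 6 was 0.39, beside -0.01 for all tested genes.

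Mt1 (ENSMUSG00000031765, GRCm39 chr8:94905710-94906955, plus strand), which encodes the metallothionein made in most tissues, was measured at 118, 149 and 129.7 CPM with DMSO and at 352, 393 and 475 CPM with esculetin. The lowest esculetin library stood above the highest DMSO library, and esculetin library 3 was the highest of all. The mean rose from 132 ± 15.5 to 407 ± 62.5 CPM (SD, n = 3). This was 3.08-fold, or 1.62 on the log2 scale (SE 0.12, edgeR adjusted p = 1.42e-06). In mean CPM per kilobase of annotated exon, Mt1 stood above 97.7% of all tested genes with DMSO and above 99.1% with esculetin. Under all 15 alternatives Mt1 stayed called, with log2 fold changes from 1.49 to 1.72.

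Mt2 (ENSMUSG00000031762, GRCm39 chr8:94898819-94900207, plus strand) lies 5502 bases before Mt1 on the same strand and encodes the partner protein of the same kind. It had 3, 1 and 2 counts with DMSO and 3, 0 and 4 with esculetin, which is too few for a test or a fold change. Of its 950 exon bases, 783 (82.4%) also lie in exons of Gm45774, a long noncoding RNA gene annotated on the other strand, while Mt1 shares none of its exon bases with another gene. The strand setting of the counting is not given in the sources used here, so that reads of the pair cannot be told apart and the level of Mt2 is uncertain. Gm45774 itself had 8, 19 and 6 counts with DMSO and 24, 4 and 15 with esculetin. Among protein-coding genes with at least 90% of their exon bases shared, 208 of 276 (75.4%) had 3 counts or fewer in every cell library. This held for 43.3% of those with under 10% shared. In the class that holds Mt2, with 10% to 90% shared, it held for 821 of 3826 (21.5%). Whether the overlap set the count of Mt2 was not tested.

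Mtf1 (ENSMUSG00000028890, GRCm39 chr4:124695897-124743593, plus strand), the gene of the zinc-sensing factor, was at 31.7, 29.3 and 30.7 CPM with DMSO and at 30.1, 36.5 and 43.8 CPM with esculetin. Its groups overlapped through esculetin library 1, which lay between the DMSO libraries. The log2 fold change was 0.27 (SE 0.13, edgeR adjusted p = 0.103). Among 15 alternatives it became a call in 1, the fit without that library, at 0.39 (edgeR adjusted p = 0.00834).

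Of the exporters, Slc30a1 (ENSMUSG00000037434, GRCm39 chr1:191638808-191645361, plus strand), which encodes the zinc exporter of the cell membrane, was at 27.0, 27.9 and 23.2 CPM with DMSO and at 38.9, 38.6 and 33.5 CPM with esculetin. All 3 esculetin libraries stood above all 3 DMSO libraries. The mean rose from 26.0 ± 2.50 to 37.0 ± 3.04 CPM (SD, n = 3), by 0.51 on the log2 scale (SE 0.12, edgeR adjusted p = 0.00287) and 1.42-fold. Slc30a10 (ENSMUSG00000026614, GRCm39 chr1:185186973-185200959, plus strand), best known as a manganese exporter, had no count in any of the 6 cell libraries. Mtf1, Slc30a1, Slc30a10 and Slc39a10 share 2.61% to 8.36% of their exon bases with genes on the other strand, and Slc39a4 and Slc39a14 share 0%.

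Of the importers, Slc39a14 (ENSMUSG00000022094, GRCm39 chr14:70540678-70588914, minus strand), which carries zinc, manganese and iron, was at 36.6, 32.7 and 31.6 CPM with DMSO and at 89.5, 106 and 111 CPM with esculetin. The 2 groups were far apart, with the lowest esculetin library above the highest DMSO library. The mean rose from 33.6 ± 2.67 to 102 ± 11.2 CPM (SD, n = 3), by 1.60 on the log2 scale (SE 0.11, edgeR adjusted p = 5.71e-07) and 3.04-fold, and it stayed called under all 15 alternatives (1.54 to 1.69).

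Slc39a10 (ENSMUSG00000025986, GRCm39 chr1:46845872-46964964, minus strand), a zinc importer of the cell membrane, was at 157, 131 and 134 CPM with DMSO and at 116, 125 and 107 CPM with esculetin. The groups did not overlap, although DMSO library 2 and esculetin library 2 lay close together. The mean fell from 140.4 ± 14.2 to 116 ± 8.77 CPM (SD, n = 3), by 0.28 on the log2 scale (SE 0.10, edgeR adjusted p = 0.0296). This call was lost without DMSO library 1 (-0.19, edgeR adjusted p = 0.0910), without DMSO library 3 (-0.30, edgeR adjusted p = 0.0532) and without esculetin library 3 (-0.22, edgeR adjusted p = 0.0685).

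Slc39a4 (ENSMUSG00000063354, GRCm39 chr15:76496580-76504172, minus strand), known as the importer that takes up zinc from the diet in the gut, had 25, 19 and 10 counts with DMSO and 20, 9 and 4 with esculetin. Its groups overlapped fully at this depth (log2 fold change -0.33, SE 0.60, edgeR adjusted p = 0.654).

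**Figure D1:**
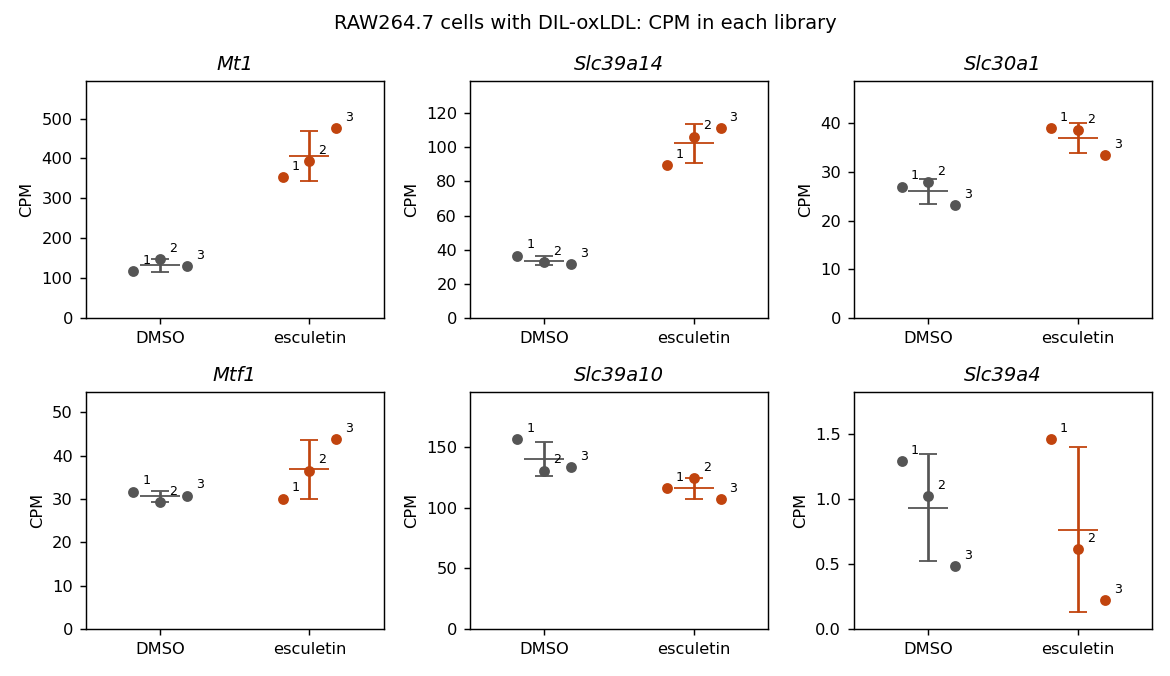
Level in each RAW264.7 library of the 6 tested metallothionein and zinc transport genes, in CPM on a linear axis that starts at 0; points are libraries with their replicate number, and horizontal lines and bars are the mean and SD of 3 libraries. The esculetin libraries lie apart from the DMSO libraries in Mt1 (352 to 475 against 118 to 149 CPM), Slc39a14, Slc30a1 and Slc39a10, and the groups overlap in Mtf1 and Slc39a4.

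In the livers none of the 7 tested genes was called, and no gene had separate groups. The effect sizes ran from -0.63 to 0.25 on the log2 scale, with 5 of the 7 below 0 and a median of -0.29 beside -0.02 for all tested genes. Over all 12813 tested genes 0.0859% were called by edgeR, and 14.5% had no overlap between the groups. At an unadjusted p-value under 0.05, 1 of the 7 passed, beside 8.37% of all tested genes. DESeq2 and limma-voom called 0 of the 7 as well, and edgeR called 0 without vehicle library 1, the library set apart by the first component.

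Markers of other cell types differed between the liver groups in places, in both directions. The 5 stellate cell markers summed to 149 to 156 CPM with vehicle and to 129 to 144 CPM with esculetin, without overlap. The 8 macrophage markers summed to 169 to 198 CPM with vehicle and to 162 to 177 CPM with esculetin, with overlap. Among them Cd68 (log2 fold change -0.50), Adgre1 (-0.31) and Csf1r (-0.28) had separate groups, and edgeR called none of the 3 (adjusted p = 0.456, 0.608 and 0.536). These 3 are named for their separate groups, which 14.5% of all tested genes had. The rest of the 8 are not given singly. The groups also overlapped in the sum of the 6 Kupffer cell markers (421 to 510 CPM with vehicle, 413 to 571 CPM with esculetin). The same held for the 5 endothelial cell markers (138 to 160 CPM with vehicle, 156 to 157 CPM with esculetin). The 6 neutrophil and lymphocyte markers summed to 3.40 to 4.37 CPM with vehicle and to 2.13 to 3.31 CPM with esculetin, without overlap. None of the markers of these lists was at 0 in all livers. The 5 pancreas markers, 2 of them at 0, went the other way without overlap. They summed to 16.3 to 25.1 CPM with vehicle and to 25.5 to 30.8 CPM with esculetin. The part of these marker shifts in the levels of the zinc genes was not tested.

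Mt1 was measured at 8.11, 6.76 and 11.1 CPM with vehicle and at 6.59, 6.62 and 8.28 CPM with esculetin. Vehicle library 3 was the highest, and the other vehicle libraries lay within the esculetin range. The mean was 8.67 ± 2.24 CPM with vehicle and 7.17 ± 0.967 CPM with esculetin (SD, n = 3). On the log2 scale esculetin stood at -0.27 relative to vehicle (SE 0.21, edgeR adjusted p = 0.750). The value was -0.071 without vehicle library 3 and -0.43 without vehicle library 2.

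Mt2 had no count in any of the 6 liver libraries. Gm45774, the antisense gene that shares most of its exon bases, had 0, 1 and 0 counts with vehicle and 2, 0 and 0 with esculetin. Among protein-coding genes with at least 90% of their exon bases shared, 236 of 276 (85.5%) had 3 counts or fewer in every liver library. This held for 38.1% of those with under 10% shared. In the class that holds Mt2, with 10% to 90% shared, it held for 769 of 3826 (20.1%). Mt2 is a gene that liver is known to express, and the zero is therefore given as listed, without a level.

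Mtf1 was at 13.8, 9.72 and 8.04 CPM with vehicle and at 9.75, 11.8 and 12.1 CPM with esculetin. The vehicle libraries held both the highest and the lowest value, and the log2 fold change was 0.10 (SE 0.20, edgeR adjusted p = 0.925).

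Slc30a1 was the member that passed at an unadjusted p-value. It was at 24.8, 25.8 and 11.9 CPM with vehicle and at 14.4, 10.5 and 15.5 CPM with esculetin. Vehicle libraries 1 and 2 stood above every esculetin library, while vehicle library 3 lay among them. The mean was 20.8 ± 7.73 CPM with vehicle and 13.5 ± 2.63 CPM with esculetin (SD, n = 3). The log2 fold change was -0.63 (SE 0.26, edgeR adjusted p = 0.544). With no filter on low counts the adjusted p from edgeR was 0.0197, and without vehicle library 3 the log2 fold change was -0.92 (edgeR adjusted p = 0.0591).

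Slc30a10 was at 67.2, 43.7 and 36.5 CPM with vehicle and at 37.9, 38.4 and 42.3 CPM with esculetin. Vehicle library 1 was the highest and vehicle library 3 the lowest (log2 fold change -0.31, SE 0.19, edgeR adjusted p = 0.681). The log2 fold change was -0.018 without vehicle library 1 and -0.51 without vehicle library 3.

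Slc39a14 was at 103.8, 95.3 and 73.1 CPM with vehicle and at 77.7, 72.1 and 73.6 CPM with esculetin. Here too vehicle libraries 1 and 2 were the highest and vehicle library 3 sat within the esculetin range (log2 fold change -0.29, SE 0.14, edgeR adjusted p = 0.625), and the value was -0.17 without vehicle library 1 and -0.44 without vehicle library 3. Slc39a10 repeated this order at a low level, with 3.62, 3.40 and 2.45 CPM with vehicle and 2.51, 2.53 and 2.26 CPM with esculetin (log2 fold change -0.37, SE 0.26, edgeR adjusted p = 0.720). Slc39a4 was at 37.8, 63.9 and 41.2 CPM with vehicle and at 54.3, 55.4 and 61.0 CPM with esculetin, where vehicle library 2 was the highest of all (log2 fold change 0.25, SE 0.18, edgeR adjusted p = 0.726). Its value was 0.12 without vehicle library 1, 0.15 without vehicle library 3 and 0.53 without vehicle library 2.

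**Figure D2:**
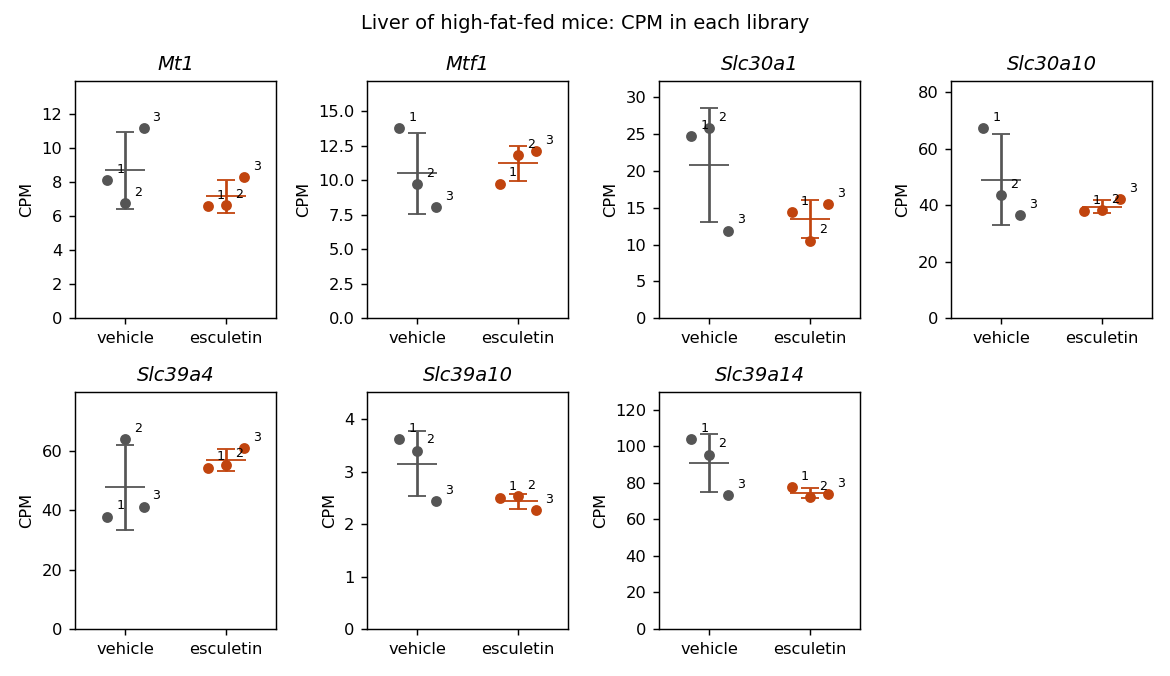
Level in each liver library of the 7 tested metallothionein and zinc transport genes, in CPM on a linear axis that starts at 0; points are libraries with their replicate number, and horizontal lines and bars are the mean and SD of 3 libraries. The groups overlap in every panel, and vehicle library 3 lies within the range of the esculetin libraries in Slc30a1 (11.9 CPM against 10.5 to 15.5), Slc39a10 and Slc39a14.

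The effect of esculetin in the cells was set against that in the liver in a 4-group edgeR model of all 12 libraries. Of the 7 members that passed its filter 3 were called, where 27.1% of 15709 tested genes were. Slc30a10 was 1 of the 7 but had no count in the cells, and no difference is given for it. The difference was 1.85 on the log2 scale for Mt1 (SE 0.24, edgeR adjusted p = 5.24e-05), 1.85 for Slc39a14 (SE 0.18, edgeR adjusted p = 4.71e-06) and 1.09 for Slc30a1 (SE 0.31, edgeR adjusted p = 0.0161), each higher in the cells. These 3 genes rose in the cells, and their fold changes in the liver were below 0 and not called. For Slc39a10 the difference was 0.06 (SE 0.21, edgeR adjusted p = 0.938), for Mtf1 0.13 (SE 0.26, edgeR adjusted p = 0.789) and for Slc39a4 -0.65 (SE 0.57, edgeR adjusted p = 0.440). The dose, the route and the time of esculetin differed between the tables, as did the cells, and their parts cannot be told apart.

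**Figure D3:**
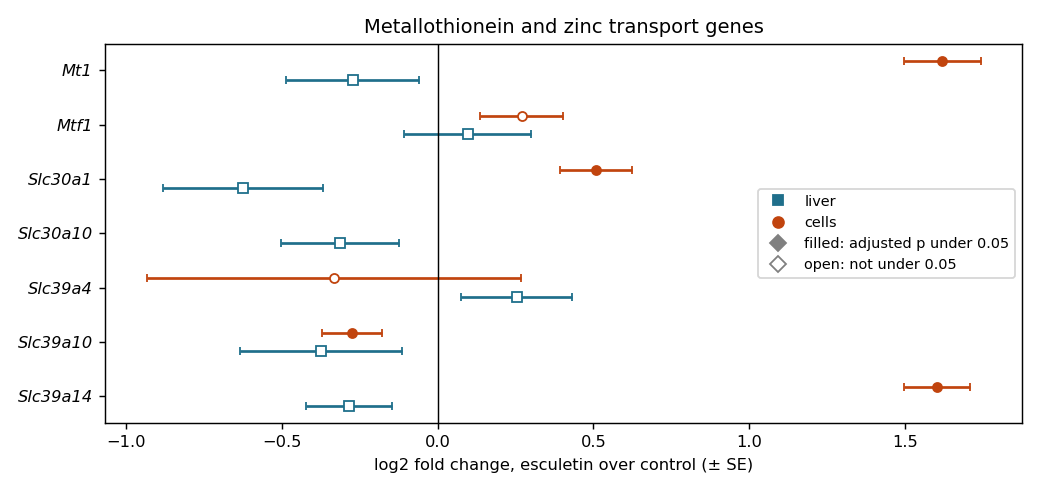
Log2 fold change, esculetin over control, of each tested member in liver (squares) and RAW264.7 cells (circles), with bars of 1 SE and filled symbols for an edgeR adjusted p-value under 0.05. Mt1 and Slc39a14 lie at 1.62 and 1.60 in the cells and at -0.27 and -0.29 in the liver, and every liver symbol is open.

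The order of the members' levels, compared per kilobase of annotated exon in the control groups, differed between the samples. In the livers Slc39a4 was first at 11.4 ± 3.41 CPM per kb, followed by Slc39a14 (7.51 ± 1.31), Mt1 (6.95 ± 1.80) and Slc30a10 (6.38 ± 2.09 CPM per kb). The libraries of Slc39a14 and Mt1 overlapped, as did those of Mt1 and Slc30a10. Slc30a1 (3.67 ± 1.37), Mtf1 (1.15 ± 0.323) and Slc39a10 (0.259 ± 0.0514 CPM per kb) followed without overlap.

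In the cells Mt1 was first at 106 ± 12.4 CPM per kb, followed by Slc39a10 (11.5 ± 1.17 CPM per kb). Slc30a1 (4.59 ± 0.441), Mtf1 (3.36 ± 0.131) and Slc39a14 (2.78 ± 0.221 CPM per kb) came next, each without overlap with its neighbour. Slc39a4 (0.224 ± 0.0988) and Mt2 (0.108 ± 0.0537 CPM per kb) overlapped at the lower end. Lengths are those of all annotated exons of a gene, which can exceed the transcript in use. For Mt1 this length was 1246 bases, the whole span of the gene. Its level per kilobase in both orders therefore depends on that length, and a shorter transcript would raise that level. This could change its place in the liver order, while in the cells Mt1 was already first.

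The other genes of zinc handling were 2 metallothioneins, 8 exporters and 11 importers. In the cells 13 of these 21 were tested and 6 were called by edgeR, 5 higher and 1 lower, with a median log2 fold change of 0.22. This share was below the 57.7% of all tested genes. Neither of the other metallothioneins (Mt3 and Mt4) had enough counts to be tested in either table.

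Among the other exporters, 5 of 8 were tested in the cells, 3 rose and 1 fell. Slc30a9, a zinc transporter known from mitochondria, was at 122, 105 and 104 CPM with DMSO and at 201, 203 and 202 CPM with esculetin, or 0.87 higher on the log2 scale (SE 0.09, edgeR adjusted p = 9.29e-06). Slc30a4, which loads zinc into vesicles, rose from 54.7 ± 9.62 to 84.1 ± 4.83 CPM (SD, n = 3; log2 fold change 0.62, SE 0.12, edgeR adjusted p = 0.000961). Slc30a7, a transporter of the Golgi, rose by 0.25 (SE 0.09, edgeR adjusted p = 0.0332), and Slc30a5, which works in the early secretory pathway, fell by 0.38 on the log2 scale (SE 0.10, edgeR adjusted p = 0.00571). Slc30a7 shares 28.1% of its exon bases with other genes, and its call was lost in 4 of the 6 fits that left out 1 library.

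Among the other importers, 8 of 11 were tested in the cells, 2 rose and none fell, with 2 at an unadjusted p-value under 0.05 and 2 called by DESeq2 as well. Slc39a13, an importer into the cytosol from intracellular stores, was at 32.9, 32.4 and 34.1 CPM with DMSO and at 56.9, 55.7 and 57.2 CPM with esculetin (log2 fold change 0.77, SE 0.09, edgeR adjusted p = 2.37e-05). Slc39a1, an importer of the cell membrane, rose from 100.4 ± 3.88 to 158 ± 21.7 CPM (SD, n = 3; log2 fold change 0.66, SE 0.10, edgeR adjusted p = 0.000236). Both genes had separate groups. The importer gene Slc39a8 did not pass the filter on low counts in the main cell fit. With no filter edgeR called it higher, as it did without DMSO library 1, 2 or 3 or esculetin library 2. The 4-group edgeR model called its effect higher in the cells than in the liver. Slc39a9 was called, higher, only without esculetin library 1. Slc39a8 and Slc39a9 were named after their values were seen.

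In the livers 13 of the 21 other zinc genes were tested. By edgeR 0 were called, by DESeq2 0, by limma-voom 0, and 0 passed at an unadjusted p-value under 0.05. Their log2 fold changes ran from -0.23 to 0.31 with a median of -0.03.

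**Figure D4:**
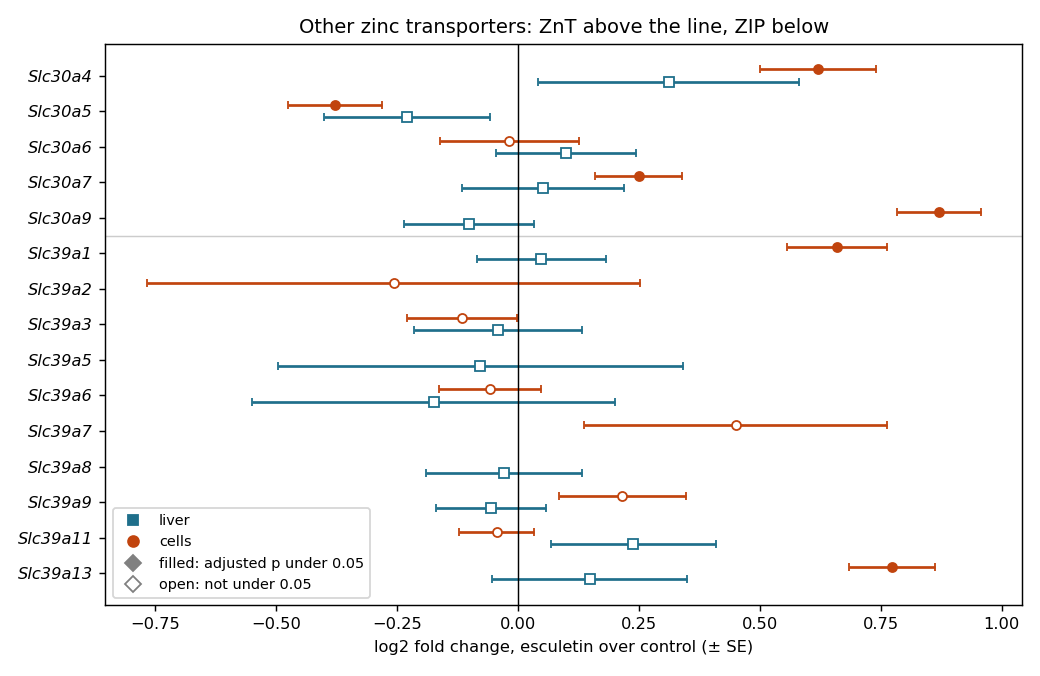
Log2 fold change, esculetin over control, of the other tested ZnT genes (above the line) and ZIP genes (beneath it) in liver (squares) and RAW264.7 cells (circles), with bars of 1 SE and filled symbols for an edgeR adjusted p-value under 0.05. In the cells Slc30a9, Slc39a13, Slc39a1, Slc30a4 and Slc30a7 lie above 0 and Slc30a5 beneath it with filled symbols, and every liver symbol is open.

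Genes that handle copper and iron, metals that some of these proteins also bind or carry, were counted in the cells. Of 10 copper genes 10 were tested, 3 rose and 3 fell, a share near the 57.7% called among all tested genes, with a median log2 fold change of -0.16. Atp7a, the copper-exporting ATPase, was at 87.3, 65.8 and 61.0 CPM with DMSO and at 155, 159 and 149 CPM with esculetin (log2 fold change 1.11, SE 0.12, edgeR adjusted p = 1.87e-05). Slc31a2, a copper transporter of endosomes and lysosomes, rose from 8.19 ± 0.931 to 18.3 ± 4.51 CPM (SD, n = 3; log2 fold change 1.16, SE 0.18, edgeR adjusted p = 0.000211). Sod1, the copper and zinc superoxide dismutase, fell by 0.62 on the log2 scale (SE 0.08, edgeR adjusted p = 7.31e-05). Commd1, a factor of copper transport, fell by 0.72 (SE 0.14, edgeR adjusted p = 0.00114). Sod1 shares 48.8% of its exon bases with other genes.

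Of 14 iron genes 12 were tested in the cells, 6 rose and 2 fell, with a median log2 fold change of 0.35. This share too was near the 57.7% called among all tested genes. Tfrc, the transferrin receptor, was at 68.0, 51.1 and 55.0 CPM with DMSO and at 855, 1003 and 1181 CPM with esculetin, or 4.12 higher on the log2 scale (SE 0.15, edgeR adjusted p = 2.04e-08). Hmox1, which frees iron from haem, was at 318, 360.0 and 362 CPM with DMSO and at 3582, 4758 and 6500.1 CPM with esculetin (log2 fold change 3.84, SE 0.20, edgeR adjusted p = 1.15e-07). The receptor and the haem enzyme thus both had esculetin libraries far above the DMSO libraries, with esculetin library 3 the highest and library 1 the lowest, as for Mt1.

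Slc40a1, the iron exporter ferroportin, rose from 20.9 ± 1.43 to 167 ± 22.2 CPM (SD, n = 3; log2 fold change 3.00, SE 0.12, edgeR adjusted p = 3.36e-08). Fth1, the heavy chain of ferritin, rose from 3967 ± 295 to 7886 ± 1182 CPM (SD, n = 3; log2 fold change 0.99, SE 0.12, edgeR adjusted p = 4.65e-05). Fth1 shares 41.5% of its exon bases with other genes. In the livers 0 of 9 tested copper genes and 0 of 14 iron genes were called by edgeR, DESeq2 or limma-voom, and at an unadjusted p-value under 0.05 there was 1 copper gene and no iron gene.

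**Figure D5:**
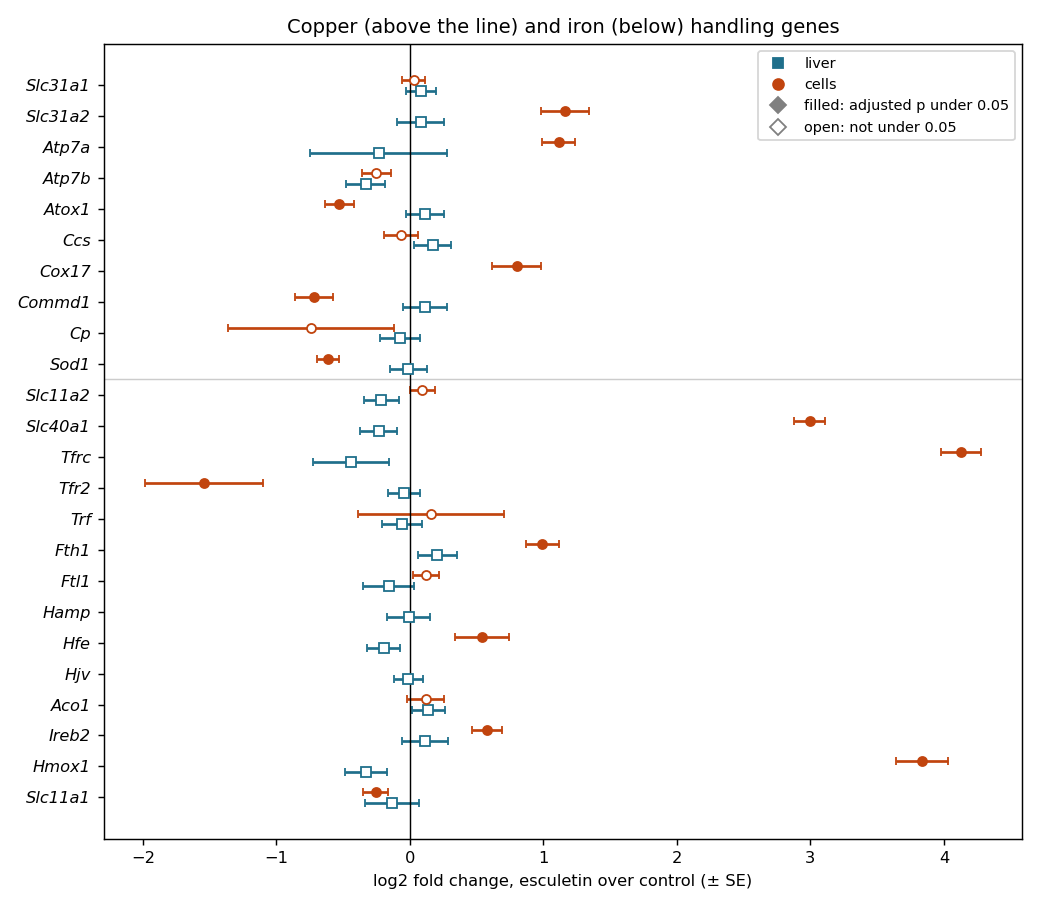
Log2 fold change, esculetin over control, of the tested copper genes (above the line) and iron genes (beneath it) in liver (squares) and RAW264.7 cells (circles), with bars of 1 SE and filled symbols for an edgeR adjusted p-value under 0.05. Tfrc (4.12), Hmox1 (3.84) and Slc40a1 (3.00) lie farthest to the right in the cells, and every liver symbol is open.

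Profiles over the 6 libraries were compared with that of Mt1 as a description without a test, since all genes share the same 6 libraries. The genes most like Mt1 were found by the root mean square difference of centred log2 CPM values. In the cells, among 8831 genes, these were Ptges at 0.0397, Brpf3 at 0.0556, Errfi1 at 0.0734, Ppp4r1 at 0.0785 and Grk5 at 0.0808 log2 units. Slc39a14 ranked 65 with a difference of 0.159. In the livers, among 6759 genes, they were Trmt2a at 0.0954, Gstm2 at 0.103, Mettl17 at 0.104, Ciapin1 at 0.106 and Wars1 at 0.117 log2 units, and Slc39a14 ranked 5043. No gene was named by both tables, and Mt2 could not be ranked. In the cells the centred values of Ptges were -0.967 to -0.610 with DMSO and 0.663 to 0.968 with esculetin. Likeness there thus largely lists genes with a like difference between the treatments, where 57.7% of all tested genes were called.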

How the data were processed

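The authors deposited raw counts per gene for the 6 liver and the 6 cell libraries, 1 table each, as whole numbers. Per the labels and the study, libraries were made with the NEBNext Ultra RNA kit, reads were aligned with HISAT2 2.2.1 and counted with featureCounts, and the study names GRCm39 as the genome. The strand setting, the rule for multi-mapping reads and the release of the annotation are not given in the sources used here.

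GENCODE on GRCm39 supplied gene names and coordinates and held 54749 of the 55357 identifiers. The liver and cell tables were fitted separately (R 4.3.3, edgeR 4.0.16, quasi-likelihood test) after filterByExpr, with TMM factors and a treatment term. CPM are counts scaled by the TMM library size, and an SE is the size of the fold change (log2) divided by the root of the F statistic. Two-sided p-values were corrected after Benjamini and Hochberg across every gene tested in a table, and calls were made under 0.05. The difference between the tables came from a 4-group edgeR model of all 12 libraries. A fold change was not given where every library of both groups had at most 3 counts, and Mt2 in the cells, with at most 4, was not tested. No exact permutation test was run, since 3 against 3 libraries cannot reach a two-sided p-value under 0.05. Counts carry biological and counting error together, and edgeR estimated a biological coefficient of variation of 16.5% for liver and 11.8% for cells.

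The fits were tested on simulated data with 200 changed genes. In the liver 7.11% of the genes changed 1.5-fold, 62.3% of those changed 2-fold and 97.0% of those changed 4-fold were recovered among 12813 genes, and in the cells 51.0%, 74.6% and 98.0% among 13277. False calls, in the same order of folds, numbered 2, 9 and 15 in the liver and 13, 8 and 16 in the cells. In the data 57.7% of the tested cell genes were called, far more than the 200 simulated. The rates for the cells therefore do not describe the real fit.

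Alternatives were RLE factors, library size only, upper quartile, no filter, a filter at a mean of 1 CPM, DESeq2 1.42.0, limma-voom (limma 3.58.1), a replicate block, the study's criterion (unadjusted p under 0.05 and a fold change over 1.5 in limma-voom) and leaving out each library. Promoter windows came from RefSeq on GRCm38.p6 and were not mixed with GRCm39 coordinates. The genes, lists and tests were chosen with earlier results of these data known. By the naming rule, all 8 members, up to 4 called genes per list with the smallest p-values, the 5 genes most like Mt1 among those averaging 10 CPM or more, and defining markers were named. Profiles for likeness used log2 CPM with a prior count of 2. Figures used matplotlib 3.10.9 in Python 3.11.15.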

Additional observations from a re-analysis of the deposited data

Results flagged for a closer look

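In 3 of the 7 members that passed the filter, the effect of esculetin differed between the RAW264.7 cells and the liver in the 4-group edgeR model of all 12 libraries, beside 27.1% of all tested genes. The difference, cells minus liver on the log2 scale, was 1.85 for Mt1 (1.62 in the cells against -0.27 in the liver), 1.85 for Slc39a14 (1.60 against -0.29) and 1.09 for Slc30a1 (0.51 against -0.63). All 3 esculetin libraries of the cells stood above all 3 DMSO libraries for these genes, while the liver groups overlapped in each. The 3 differences stayed called under all 17 alternatives, with ranges of 1.69 to 2.05 for Mt1, 1.79 to 2.04 for Slc39a14 and 0.95 to 1.43 for Slc30a1, whose highest edgeR adjusted p was 0.0460. The doses, routes and times of esculetin differed between the tables.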

How the results depend on the processing

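In the cells 14 of 15 alternatives called 3 to 5 members, and the study's criterion called 2 (Mt1 and Slc39a14). It called 5041 genes there against 7667, and the other alternatives 6518 to 8061. In the liver no member was called under 14 of 15 alternatives, and 1 (Slc30a1) with no filter on low counts. The number of liver genes called was 11, and it was 0 with library size only, 339 with no filter, 98 by DESeq2, 123 with the replicate block and 499 by the study's criterion. Leaving out 1 library gave 0 to 31, with 0 without vehicle library 2, esculetin library 1 or esculetin library 3 and 31 without vehicle library 3. The sign of Mtf1 turned in the liver without vehicle library 3 (-0.0835, with a range of up to 0.34 when other libraries were left out), and its difference between the tables turned without liver vehicle library 1 (-0.043) and without cell esculetin library 3 (-0.0091), within a range of up to 0.35. Slc39a4 in the cells turned to 0.14 without esculetin library 3 and was lowest, at -1.19, without esculetin library 1. None of these turned values was called, and the causes were not tested. Whether the replicate numbers pair the libraries was not settled by these values. The deviations of libraries with the same number correlated at 0.140, -0.0053 and 0.103 in the liver and at 0.165, -0.0298 and 0.0796 in the cells. Control library 1 and esculetin library 3 correlated at -0.151 in the liver and -0.170 in the cells. For control library 3 and esculetin library 1 the values were -0.097 and -0.102. With the replicate block 7982 cell genes were called against 7667, and 123 liver genes against 11. The calls of members were the same. Slc30a1 in the cells failed the study's criterion only, which asks for a 1.5-fold change. At the liver's depth and spread a change the size of those seen in Slc39a10 or Mtf1 was mostly beyond detection, so that an uncalled liver gene is not shown to be unaltered.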

Other observations

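Genes of signals that also drive metallothionein transcription were counted. In the livers 0 of 11 tested genes of the IL-6 and STAT3 response were called by edgeR, 0 by limma-voom and 1 by DESeq2 (Orm1), and 3 passed at an unadjusted p-value under 0.05, beside 8.37% of all tested genes. With no filter on low counts edgeR called 3, all higher (Lcn2, Orm1 and Saa1), and the study's criterion called 2 (Lcn2 and Saa1). Orm1, an acute-phase protein, was at 453, 554 and 599 CPM with vehicle and at 886, 659 and 817 CPM with esculetin (log2 fold change 0.56, SE 0.15, edgeR adjusted p = 0.305). Of 10 glucocorticoid response genes in the liver, 0 were called by edgeR, DESeq2 or limma-voom and 3 passed at an unadjusted p-value under 0.05. With the replicate block edgeR called 2, both higher (Per1 and Tsc22d3), as it did with no filter and as the study's criterion did. The median log2 fold change was 0.08 over the first list and 0.16 over the second, beside -0.02 for all tested genes.

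In the cells 4 of 12 IL-6 and STAT3 response genes were tested, 2 rose and 1 fell, where 57.7% of all tested genes were called. Socs3, a feedback inhibitor of this signal, was at 7.57, 8.28 and 9.10 CPM with DMSO and at 34.0, 40.8 and 54.3 CPM with esculetin (log2 fold change 2.37, SE 0.17, edgeR adjusted p = 1.07e-06). Il6st, the shared receptor chain, rose by 0.44, and Stat3 fell by 0.29 on the log2 scale. The call of Stat3 was lost without DMSO library 2 (edgeR adjusted p = 0.0724) and without DMSO library 3 (edgeR adjusted p = 0.0621). Of 7 tested glucocorticoid response genes 2 rose and 4 fell, beside the same 57.7%. Of the 2 that rose only Dusp1 was called with the replicate block, by DESeq2, with library size only, with no filter, by the study's criterion and in all 6 fits that left out a library, and the other, Sgk1, was named after its values were seen. Without DMSO library 2, 3 of the 4 lower genes were called. Dusp1, a phosphatase of MAP kinases, rose from 13.1 ± 0.813 to 38.1 ± 5.53 CPM (SD, n = 3; log2 fold change 1.55). Tsc22d3 fell by 1.53, Per1 by 1.13 and Klf9 by 0.81 on the log2 scale, each with no overlap between the groups. No hypothesis was drawn from these values.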
